A study of Mus musculus with 6 samples.

Results

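The genes described here are 44 genes of the cell cycle, chosen by name: all genes of the deposited table whose symbol is on a list of cell cycle and proliferation genes. They were 44 of the 54532 genes in the table, and all 44 were among the 16426 genes that passed the filter on low values (a mean of 0.5 or more over the tumors in FPKM, fragments per kilobase of gene scaled for depth). They fell into 19 DNA replication genes (E2F factors and cyclin E, origin licensing and the MCM helicase, nucleotide supply and the PCNA clamp), 22 mitosis genes (cyclins A and B with CDK1, mitotic kinases with the checkpoint and the APC/C, centromere and spindle) and 3 general markers of dividing cells (Mki67, Top2a and Hmgb2).

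RNA was sequenced from 6 colitis-associated colon tumors of the late-deletion arm (AOM+DSS-L), 3 from Tmem173fl/fl and 3 from Tmem173iΔmye mice. All mice received the mutagen azoxymethane (AOM) and 3 cycles of dextran sulfate sodium (DSS) in drinking water, and then tamoxifen (TAM). The mice were on a C57BL/6N background. Both genotypes carry floxed Tmem173, the gene of the DNA-sensing adaptor STING, and Tmem173iΔmye mice (Tmem173fl/fl Lyz2-Creert2) also carry a TAM-inducible Cre under the myeloid Lyz2 promoter, so that deletion is limited to myeloid cells within a bulk tumor. The labels give only WT or CRE, the tissue and the AOM/DSS induction, and the methods give ages of 5 to 6 or 6 to 8 weeks at TAM injection without assigning one to this arm, where TAM followed the AOM/DSS cycles. Neither the labels nor the methods say whether the 3 tumors of a group came from separate mice, so the p-values measure only the spread between these samples.

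Cells that commit to division first switch on E2F target genes, which encode the MCM helicase, the enzymes that make deoxynucleotides and the replication machinery. A later wave, driven through B-MYB and FOXM1, brings cyclin B, the mitotic kinases, the spindle proteins and the substrates of the anaphase-promoting complex (APC/C). These transcripts fall again when cells leave mitosis. In the colon dividing cells lie in the lower crypt, and in a tumor the level of these transcripts follows both the share of dividing cells and the RNA that each holds, which bulk sequencing cannot tell apart.

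Both waves have known promoter elements, and their letters were looked up first. The set of RefSeq (GRCm38.p6) promoter entries used here ran from 250 bases before to 50 bases after the start of transcription. It covered 35 of the 44 genes and lacked Tpx2, Mcm4, Ccna2, Kif20a, Cdc25c, Foxm1, Gins2, Ccne2 and Aurkb. The gap lies in this set and says nothing of the promoters of those genes. Short elements were searched on both strands by their letters alone: the cell cycle homology region, CHR (TTTGAA), the CCAAT box (CCAAT), and the E2F site (TTTCCCGC, TTTCGCGC, TTTGCCGC or TTTGGCGC). E2F matches on opposite strands can overlap each other. CHR letters lay in 10 of 16 mitosis promoters, in all 3 marker promoters, in 2 of 16 replication promoters and in 17.9% of all 32851 promoters. The E2F letters lay in 8 of 16 replication promoters, in 1 of 16 mitosis promoters (Cdk1), in 0 of 3 marker promoters and in 2.3% of all promoters. CCAAT letters were common to both classes, in 14 of 16 mitosis and 11 of 16 replication promoters against 37.4% of all promoters, and CHR and CCAAT lay together in 10 mitosis promoters and 2 replication promoters against 7.0% of all. A match is a description of the letters and not evidence of binding.

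Stretches that end at the base before the RefSeq start are shown 5′ to 3′ on the strand of the gene, with the matched letters in capitals. They were picked to show the CHR with CCAAT arrangement in genes of mitosis, both elements with an E2F match in Cdk1, and E2F matches in MCM genes. The windows are chr2:164769779-164769928 on the plus strand for Ube2c, chr4:118437344-118437443 on the minus strand for Cdc20, chr10:69352913-69353052 on the minus strand for Cdk1, chr7:135716380-135716579 on the minus strand for Mki67, chr8:75109349-75109508 on the plus strand for Mcm5 and chr1:128359706-128359825 on the minus strand for Mcm6. Matches on the other strand appear as TTCAAA for the CHR, as ATTGG for the CCAAT box and as GCGCCAAA or GCGCGAAA for the E2F site.
Ube2c: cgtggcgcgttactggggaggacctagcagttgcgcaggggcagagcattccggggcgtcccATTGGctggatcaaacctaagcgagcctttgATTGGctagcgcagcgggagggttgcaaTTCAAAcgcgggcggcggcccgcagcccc
Cdc20: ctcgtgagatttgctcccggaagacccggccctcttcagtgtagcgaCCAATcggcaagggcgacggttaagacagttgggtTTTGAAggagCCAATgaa
Cdk1: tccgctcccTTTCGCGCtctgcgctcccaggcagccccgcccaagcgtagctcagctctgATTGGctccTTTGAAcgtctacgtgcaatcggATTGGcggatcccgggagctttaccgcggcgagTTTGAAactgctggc
Mki67: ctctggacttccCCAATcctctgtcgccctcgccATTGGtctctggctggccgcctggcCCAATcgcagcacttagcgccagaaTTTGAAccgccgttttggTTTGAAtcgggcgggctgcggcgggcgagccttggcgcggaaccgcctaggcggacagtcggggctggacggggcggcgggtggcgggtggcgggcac
Mcm5: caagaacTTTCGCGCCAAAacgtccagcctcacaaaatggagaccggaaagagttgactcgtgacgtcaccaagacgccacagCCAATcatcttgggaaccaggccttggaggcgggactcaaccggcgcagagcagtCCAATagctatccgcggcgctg
Mcm6: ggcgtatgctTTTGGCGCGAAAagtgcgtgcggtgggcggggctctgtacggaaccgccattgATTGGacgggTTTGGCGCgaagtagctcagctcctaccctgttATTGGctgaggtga
In Mcm5 and Mcm6 the long capital run at the left is a pair of overlapping E2F matches, one on each strand. The Cdk1 window shows 2 CHR matches, 2 CCAAT matches and 1 E2F match, and Birc5, which had the largest fold change of the 44 genes, held none of the 3 elements in its entry.

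The tumors had similar depth, 15329810 to 16533732 counts, and the 44 genes took 0.214% to 0.332% of them. Of the epithelial markers, all 8 were tested and their mean level lay between 10.2 and 10.5 on the log2(CPM + 1) scale in every tumor, where CPM is the count scaled to a common library size with TMM factors. Leukocyte markers had mean levels of 3.10 to 4.33. Tmem173 itself had 1748, 2911 and 1705 counts in tumors of Tmem173fl/fl mice, against 2291, 2245 and 1953 counts in those of Tmem173iΔmye mice. The groups overlapped, and since the other cells of these tumors keep the gene, its bulk level does not check a myeloid deletion. Reads from Y-linked genes numbered 3547 in Tmem173fl/fl tumor 1, 2875 and 2655 in Tmem173iΔmye tumors 1 and 2, and 2 at most in the rest. The labels give no sex, and by these reads the sexes were split unevenly between the groups.

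No cell cycle gene passed the test between the genotypes. By the quasi-likelihood test of edgeR, adjusted by Benjamini-Hochberg over all genes tested, 0 of 44 genes were called at an adjusted p under 0.05, and neither was any of the 16426 genes (0% called). The smallest adjusted p among the 44 was 0.742, and 0 of them had an unadjusted p under 0.05, against 6.14% of all genes. With the replicate number as a block, 0 were called and 5 had an unadjusted p under 0.05, against 9.16% of all genes. The study's own threshold asks for a log2 fold change of 1 or more in either direction and an unadjusted p under 0.05, and 0 of 44 genes passed it, beside 2.12% of all genes (1.26% higher and 0.864% lower in Tmem173iΔmye tumors). DESeq2 called 27 of all genes and none of the 44.

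The fold changes of the 44 genes were small and leaned upwards in Tmem173iΔmye tumors. Their median log2 fold change (Tmem173iΔmye over Tmem173fl/fl) was 0.08, with a range from -0.21 for Mki67 to 0.74 for Birc5, beside a median of -0.004 over all genes tested. Positive values were seen for 30 of 44 genes, against 49.4% of all genes. This lean changed with the tumors included. Without Tmem173iΔmye tumor 1 the median was -0.09 and 12 genes were above 0. It was -0.03 with 19 genes without Tmem173fl/fl tumor 3, and 0.33 with 42 genes without Tmem173fl/fl tumor 2. Without Tmem173fl/fl tumor 1 it was 0.01 with 24 genes, and without Tmem173iΔmye tumor 2 or 3 it was 0.16 with 39 or 34 genes. Leaving out both Tmem173fl/fl tumor 2 and Tmem173iΔmye tumor 1 gave 0.10 with 38 genes. The 95% interval of the fold change lay within ±1 on the log2 scale for 36 of 44 genes (64.5% of all genes), for 19 of 19 replication genes and for 15 of 22 mitosis genes, so a difference of 2-fold or more lay outside the intervals of the former and inside those of 7 mitosis genes.

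**Figure D1:**
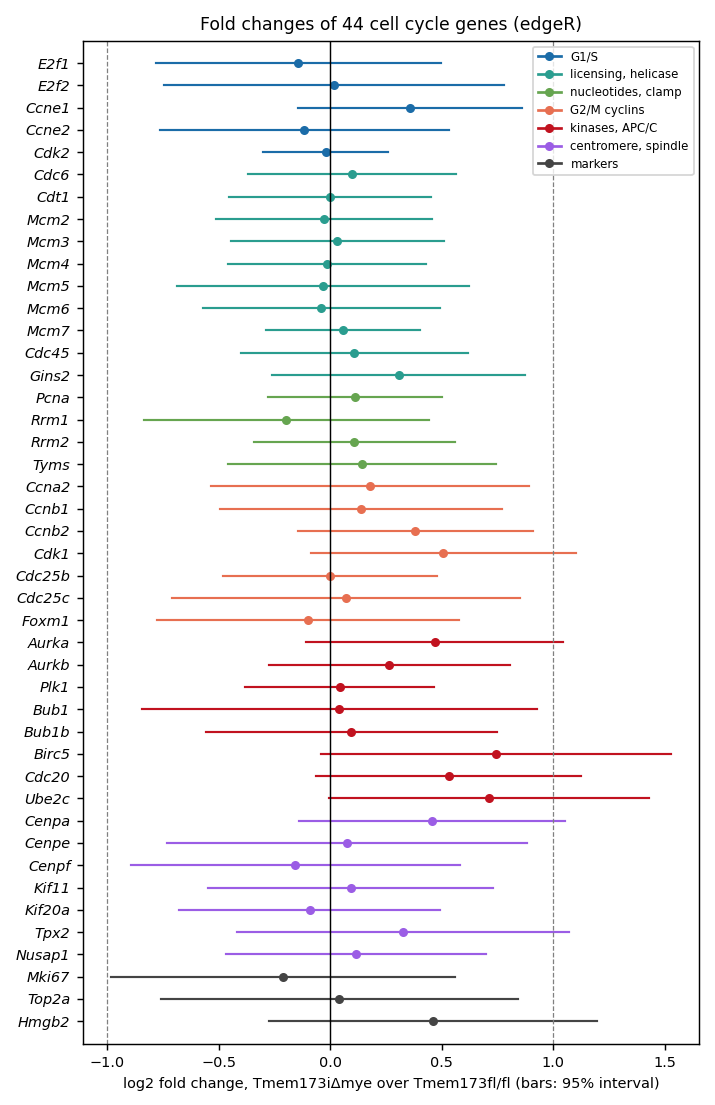
Log2 fold change of each of the 44 genes on the x axis (Tmem173iΔmye over Tmem173fl/fl, edgeR, points with 95% intervals), genes on the y axis and colored by role, dashed lines at -1 and 1. Every interval includes 0, the replication genes lie near 0, and the widest excursions to the right are Birc5 at 0.74 and Ube2c at 0.71.

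The factors that open S phase sat at a median of -0.02. Cdk2, the kinase partner of cyclin E and the most abundant of these genes per length (mean FPKM 8.25), had 49.3, 53.3 and 53.3 CPM in Tmem173fl/fl tumors and 54.7, 48.1 and 50.9 CPM in Tmem173iΔmye tumors. It was the steadiest gene of the 44, with the highest tumor at 1.14 times the lowest, and its log2 fold change was -0.02 ± 0.12 (SE). Ccne1, which encodes cyclin E1, had 12.8, 18.3 and 14.0 CPM against 23.3, 16.0 and 18.5 CPM. Both groups overlapped between 16.0 and 18.3 CPM, and the log2 fold change of 0.36 ± 0.22 was not called (edgeR adjusted p = 0.750). E2f1, E2f2 and Ccne2 had log2 fold changes of -0.14, 0.02 and -0.12.

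The genes of origin licensing and the replicative helicase had a median log2 fold change of 0.02 and a range from -0.04 for Mcm6 to 0.31 for Gins2. Mcm7, the helicase subunit with the highest level per length (mean FPKM 27.5), had 105, 133 and 121 CPM in Tmem173fl/fl tumors and 141, 108 and 125 CPM in Tmem173iΔmye tumors. The mean was 119.8 ± 14.2 CPM (SD, n = 3) against 125 ± 16.2 CPM, and the difference was well inside this spread (log2 fold change 0.06 ± 0.15, edgeR adjusted p = 0.933). Gins2, a subunit of the GINS complex that activates the helicase, had 11.4, 11.0 and 11.6 CPM against 19.2, 11.5 and 11.4 CPM, so its log2 fold change of 0.31 came from Tmem173iΔmye tumor 1 alone and was 0.01 without that tumor. The 8 remaining genes of this role (Cdc6 and Cdt1, which load the helicase, Mcm2 to Mcm6, and Cdc45, which joins it at firing origins) ranged from -0.04 to 0.11. Mcm5 varied most among them, with 57.3, 122 and 70.3 CPM in Tmem173fl/fl tumors and 98.9, 70.8 and 74.6 CPM in Tmem173iΔmye tumors.

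Among the genes of nucleotide supply, Pcna, the sliding clamp of DNA polymerases, had the highest level per length of all 44 genes (mean FPKM 61.4). It had 137, 157 and 133 CPM in Tmem173fl/fl tumors and 189.7, 132 and 140.1 CPM in Tmem173iΔmye tumors, with both ends of the range in the Tmem173iΔmye group. Its log2 fold change was 0.11 ± 0.17 (edgeR adjusted p = 0.878). Rrm1, the large subunit of ribonucleotide reductase, had 94.2, 184 and 98.4 CPM against 132, 92.8 and 104 CPM, where Tmem173fl/fl tumor 2 alone set the direction. The fitted value of -0.20 ± 0.28 became 0.18 without that tumor. Rrm2, the small subunit, and Tyms, thymidylate synthase, had log2 fold changes of 0.11 and 0.14.

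The cyclins and kinase of mitotic entry had a median log2 fold change of 0.14. Ccnb2 (cyclin B2; mean FPKM 26.6) had 38.0, 42.2 and 26.7 CPM in Tmem173fl/fl tumors and 58.0, 43.7 and 37.5 CPM in Tmem173iΔmye tumors. Cdk1, the kinase that drives entry into mitosis, had 43.2, 41.2 and 33.0 CPM against 79.4, 44.8 and 42.6 CPM. For both genes a Tmem173iΔmye tumor, number 3, lay below the highest Tmem173fl/fl tumor, and neither difference was called (Ccnb2 0.38 ± 0.23, edgeR adjusted p = 0.745; Cdk1 0.51 ± 0.26, edgeR adjusted p = 0.742). Without Tmem173iΔmye tumor 1 the values were 0.19 for Ccnb2 and 0.16 for Cdk1, and without Tmem173fl/fl tumor 3 Ccnb2 had 0.21. Ccna2 and Ccnb1 (cyclins A2 and B1) had values of 0.18 and 0.14, Cdc25b and Cdc25c, the phosphatases that activate CDK1, of 0.00 and 0.07, and Foxm1, the transcription factor of the late wave, of -0.10.

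The mitotic kinases, checkpoint and APC/C genes had the highest median of the 7 roles, a log2 fold change of 0.37, and all 8 lay above 0. Ube2c, the ubiquitin-conjugating enzyme of the APC/C (ENSMUSG00000001403, GRCm38 chr2:164769898-164778822), had 50.2, 54.5 and 31.3 CPM in Tmem173fl/fl tumors and 109, 57.7 and 56.2 CPM in Tmem173iΔmye tumors. Cdc20, the activator of the APC/C, had 52.3, 50.8 and 32.9 CPM against 88.2, 55.9 and 52.3 CPM. For Ube2c the lowest Tmem173iΔmye tumor (56.2 CPM) lay just above the highest Tmem173fl/fl tumor (54.5 CPM), and for Cdc20 the 2 tumors nearest each other both round to 52.3 CPM. These 2 were the only genes of the 44 with no overlap between the groups, both higher in Tmem173iΔmye tumors (4.55% of the 44, against 6.03% of all genes tested in that direction), and Cdc20 was singled out after its values were seen. Their log2 fold changes were 0.71 ± 0.31 for Ube2c and 0.53 ± 0.26 for Cdc20, with an edgeR adjusted p = 0.742 for each. Without Tmem173iΔmye tumor 1 that of Ube2c was 0.33.

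Birc5 (survivin, a subunit of the chromosomal passenger complex; ENSMUSG00000017716, GRCm38 chr11:117849251-117855743) had 33.8, 36.9 and 19.7 CPM in Tmem173fl/fl tumors and 75.7, 38.8 and 36.9 CPM in Tmem173iΔmye tumors. Its log2 fold change of 0.74 ± 0.34 was the largest of the 44 and was not called (edgeR adjusted p = 0.742), and it was 0.33 without Tmem173iΔmye tumor 1. Plk1, the kinase with the highest level per length in this role (mean FPKM 39.6), had 97.1, 86.9 and 74.9 CPM against 111, 75.1 and 80.3 CPM. Its groups overlapped, and its log2 fold change of 0.04 ± 0.18 took the other sign in some alternatives. Aurka and Aurkb, the Aurora kinases, had values of 0.47 and 0.27, and Bub1 and Bub1b, of the spindle checkpoint, of 0.04 and 0.09. The median of this role stayed above 0 when any single tumor was left out, at 0.11 without Tmem173iΔmye tumor 1 and 0.62 without Tmem173fl/fl tumor 2. All 8 genes were lowest in Tmem173fl/fl tumor 3 and 6 were highest in Tmem173iΔmye tumor 1. They come from the same libraries, so their shared sign is not a set of separate observations.

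The centromere and spindle genes had a median of 0.09. Tpx2, which targets Aurora A to the spindle, had 47.0, 79.3 and 32.4 CPM in Tmem173fl/fl tumors and 84.0, 59.1 and 56.0 CPM in Tmem173iΔmye tumors. Cenpa, the histone H3 variant of centromeres, had 46.4, 48.6 and 29.4 CPM against 75.6, 49.6 and 45.6 CPM. In both genes the lowest tumor was Tmem173fl/fl tumor 3 and the groups overlapped (Tpx2 0.33 ± 0.32, edgeR adjusted p = 0.807; Cenpa 0.46 ± 0.26, edgeR adjusted p = 0.742). Without Tmem173iΔmye tumor 1 the values were 0.12 and 0.20, without Tmem173fl/fl tumor 3 they were 0.08 and 0.26, and without Tmem173fl/fl tumor 2 Tpx2 had 0.74. Cenpe and Cenpf, proteins of the kinetochore, had log2 fold changes of 0.08 and -0.16, and the mitotic kinesins Kif11 and Kif20a and the spindle protein Nusap1 had 0.09, -0.09 and 0.12.

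The 3 general markers pointed in different directions. Mki67, the gene of the Ki-67 antigen, had 191, 405 and 164 CPM in Tmem173fl/fl tumors and 261, 194 and 201 CPM in Tmem173iΔmye tumors. Top2a, topoisomerase II alpha, had 175, 390.1 and 155 CPM against 294, 213 and 234 CPM. Hmgb2, a chromatin protein abundant in dividing cells, had 118, 102 and 72.6 CPM against 205, 98.5 and 98.2 CPM. Tmem173fl/fl tumor 2 stood above all other tumors in Mki67 and Top2a, and Tmem173iΔmye tumor 1 in Hmgb2. For Mki67 the mean was 253 ± 132 CPM (SD, n = 3) against 219 ± 36.7 CPM (log2 fold change -0.21 ± 0.33, edgeR adjusted p = 0.883), and without Tmem173fl/fl tumor 2 the value was 0.30. Top2a (0.04 ± 0.34) and Hmgb2 (0.46 ± 0.32) were not called either, with edgeR adjusted p = 0.980 and 0.757. The value of Hmgb2 was 0.01 without Tmem173iΔmye tumor 1 and 0.04 without both high tumors, and that of Top2a was 0.58 without Tmem173fl/fl tumor 2.

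**Figure D2:**
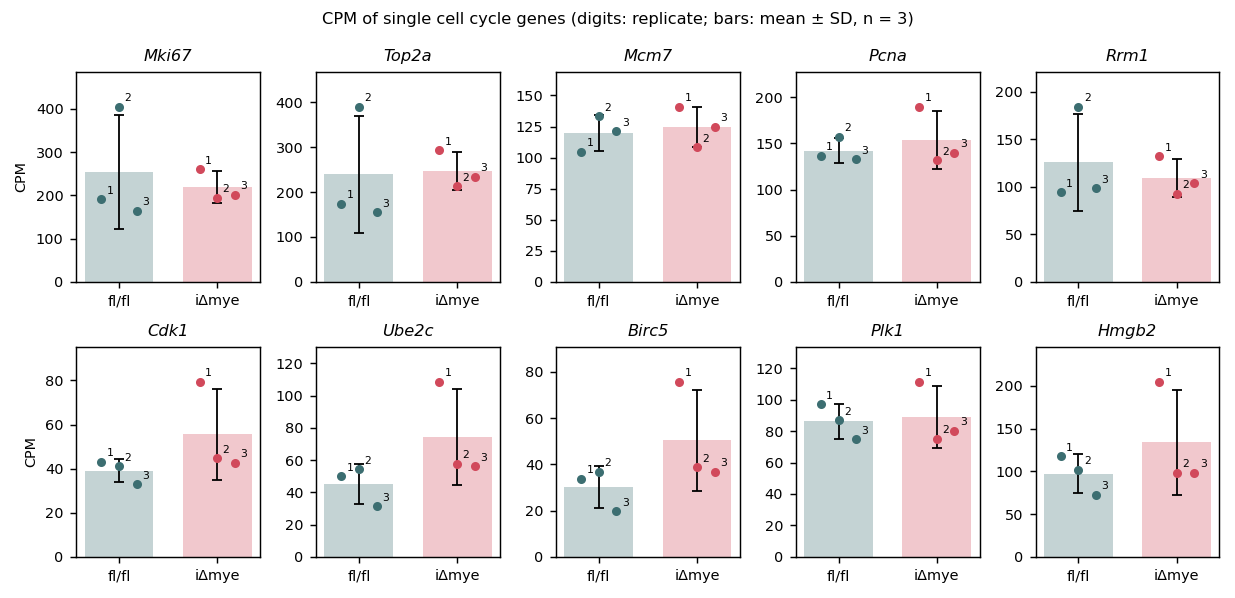
CPM (y axis, from 0) of 10 cell cycle genes in Tmem173fl/fl and Tmem173iΔmye tumors, with a point for each tumor and its replicate number, bars for the mean and error bars for the SD (n = 3). Tmem173fl/fl tumor 2 stands out in Mki67 (405), Top2a (390.1) and Rrm1 (184), Tmem173iΔmye tumor 1 in Cdk1 (79.4), Ube2c (109), Birc5 (75.7) and Hmgb2 (205), and Mcm7 and Plk1 vary little.

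The tumors differed from each other more than the genotypes did. In all 44 genes the highest tumor was either Tmem173fl/fl tumor 2 (18 genes) or Tmem173iΔmye tumor 1 (26 genes), whereas 1 of these 2 tumors was the highest in 51.5% of all genes tested. The mean level of the 44 genes was 5.35, 5.84 and 5.18 on the log2(CPM + 1) scale in Tmem173fl/fl tumors and 5.94, 5.40 and 5.46 in Tmem173iΔmye tumors. A tumor of each genotype was therefore high, the groups overlapped, and the difference of 0.15 between the group means was smaller than the SD within either group (0.34 and 0.29). The share of counts set the same tumors apart, with 0.229%, 0.332% and 0.214% against 0.331%, 0.237% and 0.250%. Relative to the mean of the epithelial markers, the 44 genes stood at -4.98, -4.33 and -4.99 against -4.55, -4.91 and -4.83, and both group means were -4.76 on the log2 scale. The median within-group SD of a gene was 0.37 for the 44 genes beside 0.23 for all genes tested, and the group difference was below the within-group SD for 36 of the 44 genes (81.8%, against 65.1% of all genes).

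**Figure D3:**
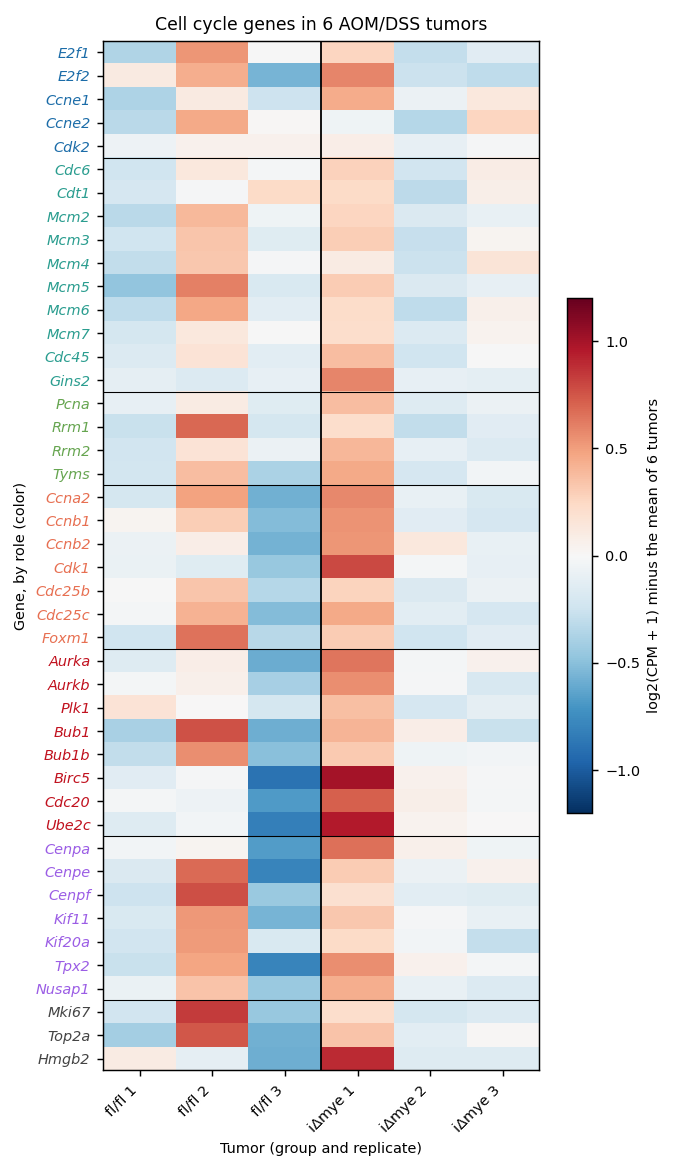
Log2(CPM + 1) of each of the 44 genes (rows, colored and ordered by role) in each tumor (columns), as the difference from the mean of the 6 tumors (red higher, blue lower). Tmem173iΔmye tumor 1 is red through nearly all genes. Tmem173fl/fl tumor 2 is red in most but below the mean in some, among them Gins2, Cdk1, Cdc20 and Hmgb2. Tmem173fl/fl tumor 3 is blue in the mitosis genes but near 0 in most replication genes.

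The 44 genes moved together from tumor to tumor. The mean Pearson r between pairs of the 44 genes was 0.67 over 6 tumors, and 0.71 with the group means removed, when 933 of 946 pairs were above 0. The same mean was 0.005 over the 10682 tested genes with a mean of at least 10 CPM. Scaling to a common library size tends to hold that value near 0, so it does not measure how far other gene sets move together. These correlations rest on few tumors and on genes that were measured in the same libraries and in part belong to the same families, and describe these tumors.

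Replication and mitosis genes parted in the lower tumors. Mitosis genes were lowest in Tmem173fl/fl tumor 3 in 21 of 22 cases (95.5%, against 18.1% of all genes), with Kif20a as the exception. Replication genes were lowest in Tmem173fl/fl tumor 1 (9 genes), Tmem173iΔmye tumor 2 (7), Tmem173fl/fl tumor 3 (2) and Tmem173fl/fl tumor 2 (1). Mean levels of the 22 mitosis genes were 5.23, 5.66 and 4.81 in Tmem173fl/fl tumors and 5.86, 5.31 and 5.25 in Tmem173iΔmye tumors, and those of the 19 replication genes were 5.19, 5.70 and 5.31 against 5.72, 5.21 and 5.40, all on the log2(CPM + 1) scale. Mitosis minus replication was thus -0.50 in Tmem173fl/fl tumor 3, and 0.04, -0.04, 0.14, 0.10 and -0.15 in Tmem173fl/fl tumors 1 and 2 and Tmem173iΔmye tumors 1, 2 and 3. The fall from the highest to the lowest tumor was correspondingly steeper in mitosis genes, with a median ratio of 2.21 against 1.65 in replication genes and 1.74 over all genes tested. Cdt1, which licenses origins and is degraded in S phase, went furthest the other way, with 39.7 CPM in Tmem173fl/fl tumor 3 against 33.3 CPM in tumor 2, and Gins2 (11.6 against 11.0 CPM) also lay higher in tumor 3. Without Tmem173fl/fl tumor 3 the mitotic entry genes had a median log2 fold change of -0.06, the spindle genes of -0.12, and the kinase and APC/C genes of 0.22.

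**Figure D4:**
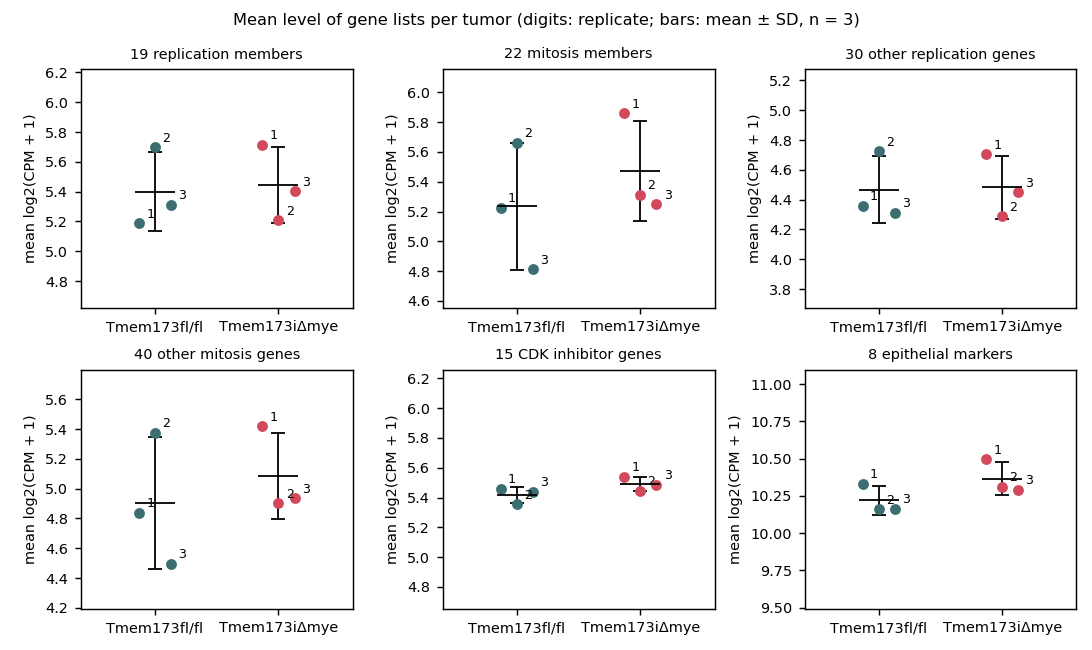
Mean log2(CPM + 1) of 6 gene lists on the y axis (each panel spans the same height and does not start at 0) in Tmem173fl/fl and Tmem173iΔmye tumors, with a point for each tumor and its replicate number and the mean ± SD (n = 3). Tumor 2 of Tmem173fl/fl and tumor 1 of Tmem173iΔmye lead in all 4 replication and mitosis panels, Tmem173fl/fl tumor 3 is lowest in both mitosis panels (4.81 and 4.50), and the CDK inhibitor and epithelial lists vary little.

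The 2 tumors with the highest levels did not favor the same genes, and gene length followed the divide. The log2 ratio of Tmem173iΔmye tumor 1 over Tmem173fl/fl tumor 2 fell with the length of the gene model (r = -0.56 over the 44 genes, r = -0.49 over 10682 tested genes of at least 10 CPM). Among all those genes its median was 0.66 up to 2000 bases, 0.18 above 2000 and up to 4000 bases, -0.09 up to 6000 bases, -0.25 up to 8000 bases and -0.42 above 8000 bases. Among the 44 genes it was 0.45, 0.24, 0.09, 0.04 and -0.48 in the same bins, which held 3, 18, 15, 3 and 5 of them. The long genes Mki67, Top2a, Cenpf and Rrm1 (9013 to 15433 bases) were higher in Tmem173fl/fl tumor 2, while Ube2c, Cdc20, Birc5 and Hmgb2 (1868 to 3402 bases) were higher in Tmem173iΔmye tumor 1.

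The fold change between the genotypes also fell with length (r = -0.47 over the 44 genes, r = -0.37 over the 10682 genes). With each tumor's length trend taken out as an offset, an alternative chosen after seeing the data, 0 of 44 genes remained without overlap between the groups, where 12.3% of all genes did. The median log2 fold change was then 0.07, that of the kinase and APC/C genes 0.25, that of Cdc20 0.33 and that of Plk1 -0.11. Ube2c kept 0.58 and Birc5 0.69. The high tumors stayed the same, with the highest value in Tmem173fl/fl tumor 2 for 21 genes, in Tmem173iΔmye tumor 1 for 22 and in Tmem173fl/fl tumor 3 for 1, and 20 of 22 mitosis genes were still lowest in Tmem173fl/fl tumor 3. What made length follow these tumors was not tested.

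**Figure D5:**
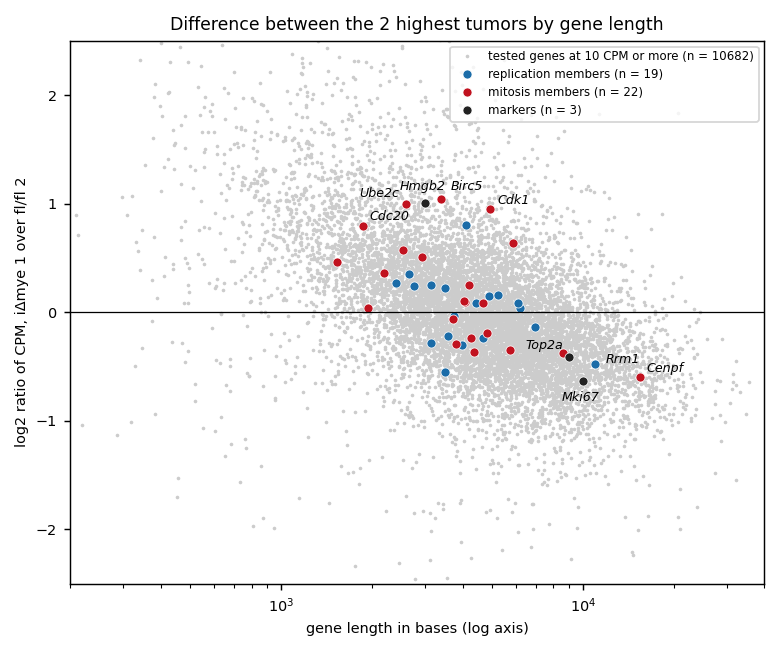
Log2 ratio of CPM in Tmem173iΔmye tumor 1 over Tmem173fl/fl tumor 2 (y axis) against gene length in bases (log x axis), with tested genes of at least 10 CPM in grey and the 44 genes in color by class. The cloud slopes down from short to long genes, Mki67, Cenpf and Rrm1 lie low at the right and Cdc20, Ube2c and Birc5 lie high at the left, and 118 of 10682 genes fall outside the axes.

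The wider machinery of the cell cycle was read from further lists. Of 40 other mitosis genes, 0 were called, 31 lay above 0 and the median log2 fold change was 0.13; all 40 were highest in Tmem173fl/fl tumor 2 or Tmem173iΔmye tumor 1, and 37 were lowest in Tmem173fl/fl tumor 3. Cdca8, of the chromosomal passenger complex, Cks2, a CDK subunit, and Pttg1 (securin) had the lowest p-values there, with log2 fold changes of 0.59 ± 0.32, 0.59 ± 0.33 and 0.79 ± 0.50. Among Tmem173fl/fl tumors Pttg1 was lowest in tumor 2, with 21.6, 5.07 and 14.5 CPM. Of 30 other replication genes, 0 were called, 14 lay above 0 and the median was -0.02; 28 were highest in one of the same 2 tumors. Dut, which removes dUTP, was the one with an unadjusted p under 0.05 by edgeR (3.33% of the 30, against 6.14% of all genes). It had 35.2, 28.6 and 29.2 CPM against 57.8, 34.8 and 42.0 CPM, where tumor 1 of Tmem173fl/fl lay above tumor 2 of Tmem173iΔmye (0.53 ± 0.21, edgeR adjusted p = 0.742). Gins3 (0.32) and the chromatin assembly factor gene Chaf1b (-0.26) came next.

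Genes of entry into the cycle and of its brakes varied less between tumors, with a median ratio of the highest to the lowest tumor of 1.58 and 1.52 against 1.99 for the 44 genes. The 6 genes of G1 cyclins, CDK4/6 and Myc had a median log2 fold change of 0.14, with 0 called and 2 without overlap, both higher in Tmem173iΔmye tumors (33.3%, against 6.03% of all genes). Myc, a transcription factor that promotes growth, had 98.6 to 109 CPM in Tmem173fl/fl tumors and 109.9 to 124 CPM in Tmem173iΔmye tumors (0.21 ± 0.12, edgeR adjusted p = 0.742). Cdk4, a G1 kinase, had 229, 232 and 239.8 CPM against 307, 258 and 246 CPM (0.21 ± 0.13, edgeR adjusted p = 0.753). Cdk6, the related kinase with a gene model of 13989 bases, overlapped at -0.34 ± 0.18. The 15 genes of CDK inhibitors and pocket proteins had a median of 0.08 with 0 called. In each direction 2 of them had no overlap between the groups (13.3%, against 6.03% of all genes higher and 6.47% lower in Tmem173iΔmye tumors), Cdkn2a and E2f4 on the higher side and Btg1 and Rbl2 on the lower.

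Among the inhibitors, Cdkn2a, which encodes p16INK4a and p19ARF, was the one gene past the study's threshold (1 of 15, against 2.12% of all genes). It had 10.4, 6.67 and 7.38 CPM in Tmem173fl/fl tumors and 34.7, 12.5 and 13.6 CPM in Tmem173iΔmye tumors. Every Tmem173iΔmye tumor lay above every Tmem173fl/fl tumor, with a log2 fold change of 1.31 ± 0.42 (edgeR adjusted p = 0.742). It no longer passed that threshold without Tmem173fl/fl tumor 2, without Tmem173iΔmye tumor 1, without both or with the length offset, and its gene model is short (1172 bases). Btg1, an antiproliferative gene, and Rbl2, which encodes the pocket protein p130, lay lower in every Tmem173iΔmye tumor than in any Tmem173fl/fl tumor, with 280.0, 235 and 377 CPM against 221, 227 and 225 CPM for Btg1 and 36.8, 35.8 and 31.9 CPM against 25.6, 30.3 and 30.6 CPM for Rbl2. Neither was called (-0.40 ± 0.18 and -0.27 ± 0.15, edgeR adjusted p = 0.742 for each).

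The make-up of the tumors was set beside the high and low cell cycle levels. Absorptive colonocyte markers had a mean level of 6.62, 4.35 and 6.42 on the log2(CPM + 1) scale in Tmem173fl/fl tumors and 5.81, 5.81 and 5.62 in Tmem173iΔmye tumors, lowest in Tmem173fl/fl tumor 2, where the cell cycle genes were high. In Tmem173iΔmye tumor 1, where the cell cycle genes were also high, the level was 5.81. Of the 7 markers 5 were lowest in Tmem173fl/fl tumor 2, and their median log2 fold change was -0.52, with 3 above 0. Slc26a3, the chloride exchanger of surface colonocytes, had 2.67 CPM in Tmem173fl/fl tumor 2 and 21.1 CPM or more in every other tumor. Crypt base stem cell markers, 5 of 6 tested, had mean levels of 6.77 to 7.06. Their median log2 fold change was 0.04, with 3 of 5 above 0. Lgr5 had the lowest value of them, with 181, 223 and 141 CPM against 119.5, 131 and 156 CPM (-0.43 ± 0.19). Germinal center B cells, which also divide, had 4 of 7 markers tested at mean levels of 2.99 to 3.62, and both their mean and that of the leukocyte markers were highest in Tmem173fl/fl tumor 1. Single markers varied: 2 of the 4 germinal center genes were highest in Tmem173fl/fl tumor 2 and 2 of the 8 leukocyte genes in Tmem173iΔmye tumor 1. Smooth muscle markers had mean levels of 5.52, 5.10 and 5.41 against 4.64, 4.40 and 5.33, with a median log2 fold change of -0.51 over 6 genes. Of these 6, 0 were called and 1 was past the study's threshold (Des, -1.01 ± 0.39), against 0.864% of all genes in that direction. Fibroblast markers had mean levels of 7.38 to 7.95. The interferon response genes were highest in Tmem173iΔmye tumor 1 in 10 of 10 cases (mean level 6.68 there, 3.32 to 4.94 elsewhere), with a median log2 fold change of 2.03, 8 of 10 past the study's threshold (1.26% of all genes in that direction) and 0 called by edgeR at an adjusted p under 0.05. The part of these cell types and signals in the cell cycle levels was not tested.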

How the data were processed

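RNA-seq (polyA RNA, NEBNext Ultra libraries) was analysed for 3 Tmem173fl/fl (labelled WT) and 3 Tmem173iΔmye (labelled CRE) tumors, grouped by the genotype label. Per gene, the authors deposited raw read counts, made with fastp, HISAT2 2.0.5 and featureCounts 1.5.0-p3 on GRCm38 according to the submitters' processing notes, with parameters not given in the sources used here. Beside them the authors deposited FPKM values, which were rebuilt from the counts, the gene lengths, median-of-ratios size factors and a common library total (the geometric mean; largest relative difference 4.96e-07), and the gene length in bases. The table also holds columns of the authors' own comparison (means, fold changes and p-values), which were not used.

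The test was edgeR 4.0.16 under R 4.3.3 on the counts (quasi-likelihood, TMM, group as the only term) over 16426 genes whose mean FPKM reached 0.5, with Benjamini-Hochberg adjustment over all of them. The SE of a log2 fold change was taken from its size and its F statistic. Levels are TMM-normalized CPM, and mean levels over gene lists are means of log2(CPM + 1). With 3 tumors per group an exact permutation test cannot give a p below 0.1, so none was run on list means. At 15329810 to 16533732 counts per tumor each of the 44 genes had at least 87 counts in every tumor, and the spread between tumors, not counting error, set the precision.

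The 44 genes, the other lists and the alternatives were chosen with earlier results of these data known. Values in every tumor are given for Mki67, Pcna and Top2a and, per role, for the gene with the highest mean FPKM, the lowest p and the largest change, and up to 3 genes with the lowest p are named from further lists. Not every such gene of the cell type lists is printed. Alternatives were median-of-ratios scaling, library totals, no filter and a mean FPKM of at least 1, DESeq2 1.42.0, limma 3.58.1 on log2(FPKM + 1) and log2(FPKM + 0.1), the replicate number as a block, Y-linked reads as a covariate, leaving out each tumor, and, chosen after seeing the data, a length offset (lowess of each tumor's deviation on log2 length, from genes of at least 10 CPM) and leaving out Tmem173fl/fl tumor 2 with Tmem173iΔmye tumor 1. The scripts were tested on simulated data. Promoters came from RefSeq (GRCm38.p6).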

Additional observations from a re-analysis of the deposited data

How the results depend on the processing

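None of the 44 genes was called and none passed the study's threshold under any alternative. The median log2 fold change of the 44 genes was 0.07 to 0.10 under the scaling, filter, tool, block, covariate and length alternatives, and -0.09 (without Tmem173iΔmye tumor 1) to 0.33 (without Tmem173fl/fl tumor 2) when a tumor was left out, with 12 to 42 genes above 0. The count of genes without overlap between the groups, 2, became 17 without Tmem173fl/fl tumor 2, beside 25.2% of all genes in either direction. It was 4 without Tmem173fl/fl tumor 1 (31.2% of all genes) and 3 to 6 with any other tumor left out (18.7% to 22.6%). It was 0 with the length offset, and 16 without both high tumors (38.1% of all genes). In these settings 0 of the 44 genes lay lower without overlap in Tmem173iΔmye tumors, while the shares of all genes hold both directions. The median of the CDK inhibitor list was 0.00057 to 0.17 with a tumor left out, -0.033 with the length offset and 0.0099 without both high tumors, and its count past the threshold, 1, fell to 0 without Tmem173fl/fl tumor 2, without Tmem173iΔmye tumor 1, without both and with the length offset. For the other mitosis genes that count was 0 to 1 with a tumor left out. Over all genes, 6 were called with no filter, 27 by DESeq2 and 1 without Tmem173iΔmye tumor 1.

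Signs of small fold changes turned for Plk1 (-0.035 with the Y-linked covariate, -0.11 with the length offset, -0.15 without both high tumors), Pcna (-0.025) and Cdk2 (0.035) with the length offset, and Mki67 (0.15), Gins2 (-0.014) and Rrm1 (0.021) without both high tumors. With a tumor left out, values ran from -0.19 to 0.58 for Top2a, -0.041 to 0.15 for Mcm7, -0.44 to 0.30 for Mki67, -0.37 to 0.18 for Rrm1, -0.072 to 0.023 for Cdk2, -0.15 to 0.15 for Plk1, -0.069 to 0.21 for Pcna and up to 0.44 for Gins2. The cause was not tested.

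Same-numbered tumors did not all deviate together over all tested genes of at least 10 CPM (r = 0.40, 0.02 and 0.16 for numbers 1, 2 and 3), and Tmem173fl/fl tumor 2 correlated best with Tmem173iΔmye tumor 3 (0.28), so by these values the numbers were not taken as pairs. Over the 44 genes alone same-numbered tumors shared a pattern of deviations across genes (r = 0.74, 0.37 and 0.58). The other pairs of tumors ran from -0.65 to 0.01, a hint from the data and not from the design. The contrast is in part arithmetic. Deviations from a group mean cancel within the group, so positive values for same-numbered tumors push those of the other pairs down. This r leaves out the mean log2(CPM + 1) level of the 44 genes, which went opposite ways for numbers 1 and 2. That level was 5.35 and 5.84 in Tmem173fl/fl tumors 1 and 2 (group mean 5.45). In Tmem173iΔmye tumors 1 and 2 it was 5.94 and 5.40 (group mean 5.60). Number 3 lay below the group mean in both groups (5.18 and 5.46). With the replicate number as a block the median of the 44 genes was 0.10 and 0 were called, while 5 (Cdk1, Birc5, Cdc20, Ube2c and Cenpa) had an unadjusted p under 0.05, against 9.16% of all genes, with a smallest adjusted p of 0.442 by edgeR.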

Other observations

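Which cell cycle genes had an unadjusted p under 0.05 changed with the setting. Ube2c did with library totals alone (5.84% of all genes did), Birc5 and Ube2c did by DESeq2 (6.66%) and without Tmem173iΔmye tumor 2 (4.83%), and Cdk1, Birc5, Cdc20 and Ube2c did with no filter and without Tmem173iΔmye tumor 3 (5.63% in each). Without Tmem173fl/fl tumor 2 the 6 genes were Ccne1, Bub1, Bub1b, Cenpe, Tpx2 and Top2a (6.5% of all genes), with a smallest adjusted p over the 44 genes of 0.745 by edgeR. Without both high tumors they were Bub1b, Tpx2 and Top2a (6.68%). In none of these settings was a cell cycle gene called, and with the Y-linked covariate or without Tmem173iΔmye tumor 1 none of the 44 had an unadjusted p under 0.05.

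The most abundant cell cycle transcripts per length were Pcna (mean FPKM 61.4), Plk1 (39.6), Hmgb2 (38.3), Cdc20 (29.5) and Mcm7 (27.5), and the least abundant were Gins2 (3.08), Cdc6 (3.13) and Cenpf (3.15).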
